A study of Homo sapiens with 4 samples.

Results

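High mobility group (HMG) proteins are abundant architectural proteins of chromatin, named for their fast migration in gels. The genes described here are the 5 HMGN genes, 3 HMGB genes and HMGA1, listed by symbol, and all 9 were found among the 62700 genes of the deposited count table. The family was chosen by the labelled against unlabelled counts of HMGN5, already known to be higher in labelled libraries of these data. The labelled against unlabelled values below are therefore a description, and no member is given a p-value of its own.

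RNA was sequenced from HEK293T, an established human line of embryonic kidney origin. As these are bulk libraries, fewer cells of a type and less RNA per cell cannot be told apart. The labelled group (2 libraries) received 100 µM 4-thiouridine (s4U), a uridine analogue that cells build into new RNA, for 5 h, then 0.5 mM alkyne phenol with s4U for 30 min, and finally D-amino acid at 10 mM for another 30 min. The unlabelled group (2 libraries) received the same s4U and alkyne phenol without the D-amino acid. Both groups carried the genotype CMV-V5-MITO-PRADA, a V5-tagged construct named for the CMV promoter and directed to the mitochondrial matrix, and the labels call the cells a stable clone derivative, so all 4 libraries share 1 line. Ribosomal RNA was depleted before library preparation, and the series text describes the material as enriched. The titles call the libraries biological replicates without saying how cultures were separated, so errors measure the spread between these libraries.

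The labelled libraries held 9380258 and 12287451 assigned fragments and the unlabelled libraries 8172347 and 5771795. Mitochondrial transcripts took 26.99% and 30.9% of these in labelled and 9.04% and 10.4% in unlabelled libraries. Levels are counts per 1000000 fragments (CPM) after TMM scaling, which sets libraries to a common level over most genes. Unlabelled replicate 2 stood apart: the median gene differed by 0.257 (log2, either direction) between it and unlabelled replicate 1, against 0.141 between the labelled libraries. Of the HEK293T markers VIM, LIN28B, KRT18, PAX2, KRT8, NEFL and CDH2 all 7 were detected in every library, while the blood markers CD3E and HBB had 0 fragments in all 4, PTPRC had 0 in both labelled and 1 in each unlabelled library, and the endothelial markers PECAM1 and CDH5 had at most 1 fragment per library.

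HMGN proteins bind the nucleosome core through a conserved nucleosome-binding domain and compete with the linker histone H1, which loosens chromatin. HMGB proteins carry HMG boxes that bind and bend DNA, and HMGA proteins hold AT-rich DNA with short AT hooks. HMGN5 differs from the other HMGN proteins by a long acidic tail, and HMGN4 is a close relative of HMGN2 with no intron in its coding sequence.

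The 5 HMGN genes are one family by sequence, and the stretch that shows it is printed here because HMGN5 is compared with its paralogs throughout. Translating the coding sequences of 1 GENCODE 29 transcript per gene and taking the longest run of residues common to all 5 gave 8 codons. The 24 bases in capitals are those codons, with 15 bases of coding sequence on each side in lower case, read 5′ to 3′ along the mRNA (GRCh38).
HMGN5: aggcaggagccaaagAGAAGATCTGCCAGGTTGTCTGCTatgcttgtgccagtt
HMGN2: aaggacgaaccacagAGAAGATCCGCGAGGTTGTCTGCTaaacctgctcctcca
HMGN4: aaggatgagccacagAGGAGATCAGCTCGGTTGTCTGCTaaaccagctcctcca
HMGN1: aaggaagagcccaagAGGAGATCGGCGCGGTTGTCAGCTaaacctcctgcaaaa
HMGN3: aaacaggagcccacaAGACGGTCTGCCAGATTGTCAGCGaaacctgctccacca
The residues are the same in all 5 genes and the bases are not. Compared with HMGN5 in the 24 bases, HMGN2 differed at 2, HMGN4 at 4, and HMGN1 and HMGN3 at 5 each. The capitals lie on the minus strand in exon 4 of HMGN5 (chrX:81118730-81118753), on the plus strand in exon 3 of HMGN2 (chr1:26473709-26473732) and exon 2 of HMGN4 (chr6:26545273-26545296), and on the minus strand in exon 3 of HMGN1 (chr21:39348422-39348445) and exon 3 of HMGN3 (chr6:79208547-79208570). Over the whole coding sequence HMGN2 and HMGN4 were closest of the 6 pairs among HMGN1 to HMGN4, with 236 of 273 bases identical (86.4%). The HMGN5 coding sequence was 849 bases long, against 273 to 303 bases in its 4 paralogs.

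HMGN5 (ENSG00000198157, X chromosome, 81113699 to 81201913, minus strand) was the 1 member whose groups lay far apart. It stood at 85.1 and 79.1 CPM in labelled libraries, from 734 and 827 fragments, against 30.8 and 31.9 CPM in unlabelled libraries, from 278 and 213 fragments. The lowest labelled library was thus far above the highest unlabelled library, and within each group the libraries lay close together. The means were 82.1 CPM ± 4.24 in labelled and 31.4 CPM ± 0.828 in unlabelled libraries (SD, n = 2 each), and the edgeR log2 fold change was 1.39 ± 0.13 (SE), or 2.62-fold. The mitochondrial share of fragments also differed between the groups. With those genes left out of the fit HMGN5 was again at 1.39, and the median of all genes again at -0.01. As TMM scaling rests on most genes in either fit, whether that share bears on HMGN5 was not tested. Between single libraries the log2 difference was 1.30 to 1.46 over all 4 pairs of a labelled with an unlabelled library. By log2 fold change it ranked 82 of 18973 genes tested, while its mean level was at percentile 77.0.

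**Figure D1:**
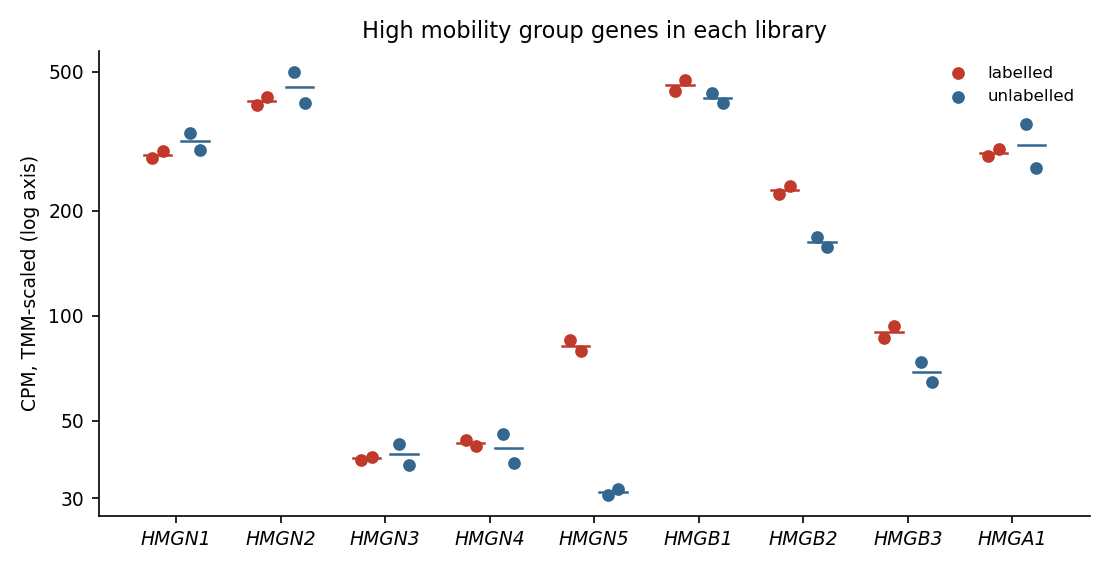
Level of each of the 9 HMG genes in each library, as TMM-scaled CPM on a log axis. Points are libraries, bars are group means of 2 libraries, labelled in red and unlabelled in blue. HMGN5 stands at 85.1 and 79.1 CPM in labelled against 30.8 and 31.9 CPM in unlabelled libraries, while HMGN3 and HMGN4 overlap between the groups.

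The paralogs of HMGN5 did not share this difference in level. HMGN1 (ENSG00000205581, chromosome 21, 39342315 to 39349647), which with HMGN2 is the most abundant of the family, had 282 and 296 CPM in labelled and 333 and 299 CPM in unlabelled libraries. Its labelled values were both lower, by a margin smaller than the gap between the unlabelled libraries, with a log2 fold change of -0.13 ± 0.14 (SE). HMGN2 (ENSG00000198830, chromosome 1, 26472440 to 26476642) had 401 and 422 CPM in labelled and 499 and 407 CPM in unlabelled libraries. These overlapped, and the log2 fold change was -0.14 ± 0.16.

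HMGN3 (ENSG00000118418, chromosome 6, 79201245 to 79234689), also described as a cofactor of thyroid hormone receptor, had 38.6 and 39.5 CPM in labelled and 42.8 and 37.3 CPM in unlabelled libraries. Both labelled values lay between the unlabelled ones, and the log2 fold change was -0.04 ± 0.13. HMGN4 (ENSG00000182952, chromosome 6, 26538366 to 26546933) had 44.2 and 42.4 CPM in labelled and 45.7 and 37.9 CPM in unlabelled libraries, a log2 fold change of 0.04 ± 0.13. It too lay within the unlabelled range. Without unlabelled replicate 1 the log2 fold changes of HMGN2 and HMGN3 were above 0, at 0.05 and 0.10, and without unlabelled replicate 2 that of HMGN4 was -0.08.

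A ratio within a library does not depend on how libraries are scaled, so HMGN5 was also set against the sum of its 4 paralogs. For each HMGN5 fragment there were 9.0 and 10.1 paralog fragments in labelled libraries, against 29.9 and 24.4 in unlabelled libraries. The log2 ratio averaged -3.25 ± 0.12 in labelled and -4.76 ± 0.21 in unlabelled libraries (SD, n = 2 each), a difference of 1.503, or 2.83-fold. Set against single paralogs the same difference was 1.51 for HMGN1, 1.52 for HMGN2, 1.42 for HMGN3 and 1.33 for HMGN4. HMGN5 had more fragments than HMGN3 in both labelled libraries, at 2.20 and 2.00 times as many, and fewer in both unlabelled libraries, at 0.718 and 0.855 times.

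As a share of all HMGN1 to HMGN5 fragments, HMGN5 took 10.0% (95% Wilson interval 9.34 to 10.7%) and 8.99% (8.43 to 9.60%) in labelled libraries. It took 3.24% (2.88 to 3.63%) and 3.93% (3.45 to 4.48%) in unlabelled libraries, and these intervals cover counting error only. HMGN2 took 47.1% and 48.0% in labelled and 52.5% and 50.05% in unlabelled libraries, and HMGN1 took 33.1% and 33.7% in labelled and 35.0% and 36.8% in unlabelled libraries. These shares sum to the whole, so a larger HMGN5 share lowers the sum of the others, though not each of them. HMGN3 took 4.49 to 4.54% in labelled and 4.50 to 4.60% in unlabelled libraries. HMGN4 took 5.19% and 4.82% in labelled and 4.81% and 4.67% in unlabelled libraries.

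**Figure D2:**
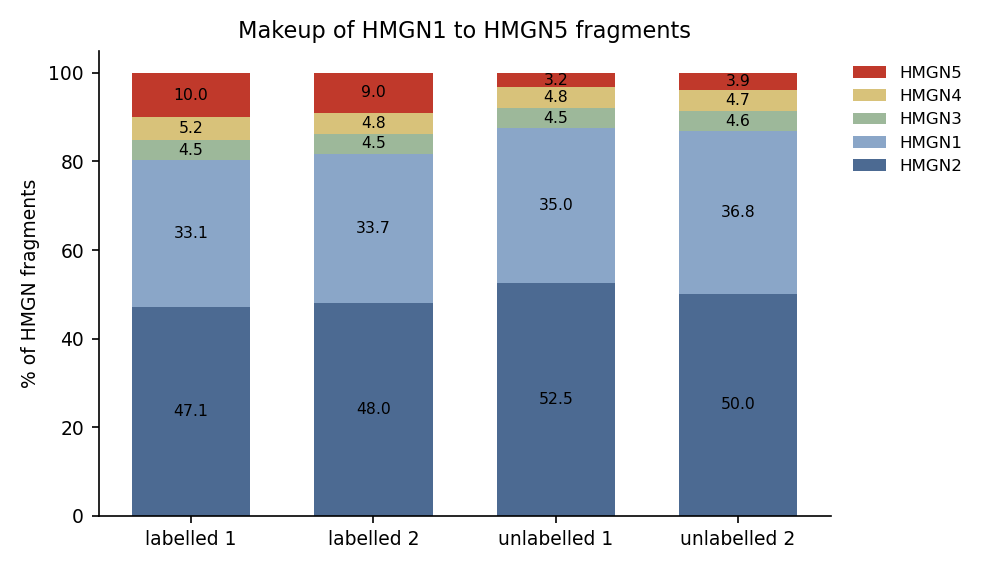
Makeup of the fragments of the 5 HMGN genes in each library, in percent of their sum, from unscaled counts. Bars are the 2 labelled and 2 unlabelled libraries. The HMGN5 share is 10.0% and 8.99% in labelled and 3.24% and 3.93% in unlabelled libraries, while the HMGN3 and HMGN4 shares are close to each other in all 4.

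All 3 HMGB genes had higher values in both labelled than in both unlabelled libraries, by less than HMGN5 and, for HMGB1, by a narrow gap. Over all genes tested, 22.2% likewise had groups apart with labelled higher. HMGB2 (ENSG00000164104, chromosome 4, 173331376 to 173334432), a DNA-bending protein most abundant in proliferating cells, had 224 and 235 CPM in labelled and 168 and 157 CPM in unlabelled libraries. The log2 fold change was 0.49 ± 0.13 (SE), with means of 229 CPM ± 7.80 in labelled and 163 CPM ± 7.99 in unlabelled libraries (SD, n = 2 each). HMGB3 (ENSG00000029993, X chromosome, 150980509 to 150990771) had 86.2 and 93.4 CPM in labelled and 73.5 and 64.6 CPM in unlabelled libraries, a log2 fold change of 0.38 ± 0.13. In both genes the groups did not overlap.

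HMGB1 (ENSG00000189403, chromosome 13, 30456704 to 30617597), a DNA-bending protein of the nucleus also known as a danger signal outside cells, had 439 and 474 CPM in labelled and 434 and 405 CPM in unlabelled libraries. The groups were apart only by the small gap between 439 and 434 CPM, and the log2 fold change was 0.12 ± 0.15. HMGA1 (ENSG00000137309, chromosome 6, 34236873 to 34246231), an AT-hook protein of embryonic and tumour cells, had 286 and 300 CPM in labelled and 353 and 265 CPM in unlabelled libraries. Its groups overlapped, with the widest log2 gap between unlabelled libraries of the 9 genes (0.41), and the log2 fold change was -0.08 ± 0.16. Without unlabelled replicate 1 it was 0.18, and without unlabelled replicate 2 it was -0.26. Of the related genes outside the 9, HMGA2 had 65.8 and 65.6 CPM in labelled and 76.6 and 73.3 CPM in unlabelled libraries, and HMGB4 had 0 fragments in all 4 libraries, which allows up to 0.320 and 0.244 CPM of unscaled fragments in labelled and 0.367 and 0.520 CPM in unlabelled libraries.

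Counted by edgeR's quasi-likelihood test with an adjusted p under 0.05 over all genes, 1 of the 9 members was higher (HMGN5) and 0 were lower, and 3 had an unadjusted p under 0.05. Over all 18973 genes tested 0.269% were higher and 0.0158% lower by that rule, 11.5% had an unadjusted p under 0.05, and because HMGN5 led to the choice of the family nothing is read from the count. DESeq2 also had 1 member higher and 0 lower, against 0.332% and 0.0896% of all genes. The groups did not overlap with labelled higher for 4 members (HMGN5, HMGB1, HMGB2 and HMGB3) and with labelled lower for 1 (HMGN1), against 22.2% and 22.4% of all genes tested. The median log2 fold change of the 9 was 0.04, and over all genes tested it was -0.01. The members' median was 0.20 without unlabelled replicate 1, -0.08 without unlabelled replicate 2 and -0.31 with library size alone. For the 8 members other than HMGN5 it was 0.00, with a range of -0.14 to 0.49.

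Scaling and single libraries moved these counts. With library size alone the median of all genes was at -0.37, and 69 genes were higher (0.364%) and 2541 lower (13.4%), in place of 51 and 3. On that scale HMGN5 was at 1.04 and still called, HMGB2 at 0.14, HMGB3 at 0.02, HMGB1 at -0.23 and HMGN4 at -0.31, while HMGN1 and HMGN2 were called lower at -0.48 and -0.49. Without unlabelled replicate 1 the count was 2440 higher (11.6% of genes tested) and 1546 lower (7.37%), and HMGB2 (0.58) and HMGB3 (0.51) were among the higher. Without unlabelled replicate 2 it was 419 higher (2.06%) and 518 lower (2.55%), with HMGB2 (0.45) among the higher. Without labelled replicate 1 there were 76 higher and 17 lower, and without labelled replicate 2 there were 49 higher and 9 lower, with HMGN5 the 1 member called in both.

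**Figure D3:**
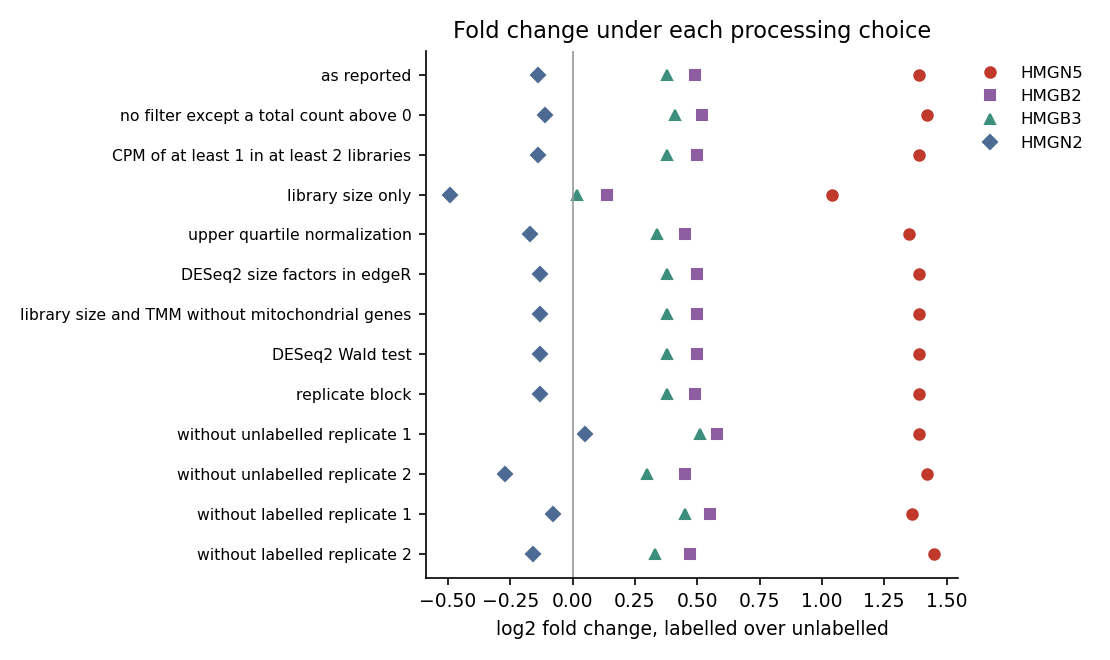
Log2 fold change, labelled over unlabelled, of HMGN5, HMGB2, HMGB3 and HMGN2 (x axis) as reported and under each of 12 processing choices (rows). HMGN5 lies between 1.04 and 1.45 in every row, while HMGN2 is on both sides of 0, from -0.49 to 0.05.

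**Figure D4:**
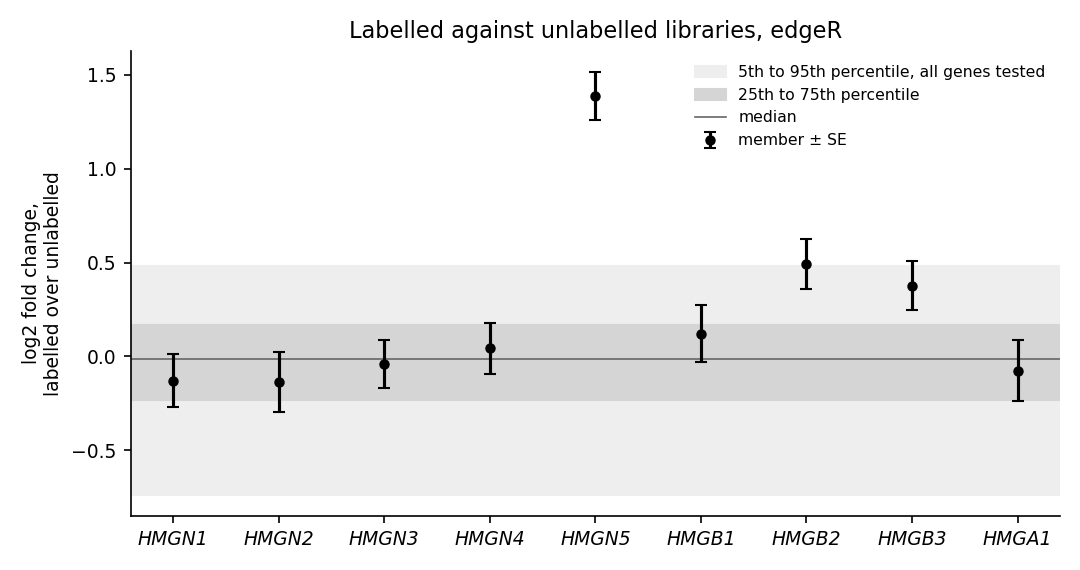
Log2 fold change of the 9 members, labelled over unlabelled, with SE bars from the edgeR fit of 2 against 2 libraries. Grey bands mark the 5th to 95th and 25th to 75th percentiles of all 18973 genes tested, which run from -0.74 to 0.48 and from -0.23 to 0.17. HMGN5 lies above the outer band and HMGB2, at 0.49, at its upper edge.

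The levels of the 9 genes can be compared with each other only per length, as CPM per kb of annotated exon. In labelled libraries the order was HMGN2 (129), HMGA1 (126), HMGB2 (95.5), HMGB1 (59.3), HMGN1 (57.3), HMGN5 (34.4), HMGN3 (29.03), HMGB3 (22.9) and HMGN4 (21.7). Neighbours in that order whose libraries overlapped were HMGN2 with HMGA1, HMGB1 with HMGN1, and HMGB3 with HMGN4. In unlabelled libraries the order was HMGN2 (142), HMGA1 (133), HMGB2 (67.8), HMGN1 (62.6), HMGB1 (54.5), HMGN3 (29.8), HMGN4 (21.0), HMGB3 (17.6) and HMGN5 (13.1), with overlap for HMGN2 with HMGA1 and for HMGB2 with HMGN1. HMGN5 was thus last of the 9 per length in unlabelled libraries, at 12.9 and 13.4, and in place 6 in labelled libraries, at 35.6 and 33.1. Annotated exons include isoforms that these cells may not use, so this scale depends on the annotation.

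How far each transcript shares sequence with other genes was not used in choosing the family. For HMGN5, of the 50-base windows of its transcript, 0 of 2077 occurred in a transcript of another gene in GENCODE 29 on either strand, as for HMGN4 (0 of 1176). The share was 34.2% for HMGN2, 17.99% for HMGN1, 15.7% for HMGB1, 11.5% for HMGN3 (all shared with HMGN3-AS1), 8.10% for HMGA1, 3.82% for HMGB3 and 0.54% for HMGB2. No window was shared between 2 of the 9 members. The counting did not ask for reads that map to several places, so the levels of HMGN2, HMGN1 and HMGB1 are uncertain, and what this adds to their fold changes was not tested. In the deposited annotation the exons of 8 members overlapped no other gene, and HMGN3 shared 144 of 1345 exonic bases with HMGN3-AS1 on the opposite strand, and the counting did not use strand.

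The transcripts of the members differed in uridine content, the base that s4U replaces. It was 25.7% in HMGN5, at percentile 59.3 of the tested genes with a coding transcript, whose median was 24.4%. HMGB1 had the highest share of the 9, at 30.4%, and HMGA1 the lowest, at 20.7%. HMGB2 had 22.2%, below that median, and HMGB3 had 29.5%, above it.

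The family has many pseudogenes, most of them named for HMGB1, HMGN2, HMGN1 and HMGB3. Of 157 annotated HMG pseudogenes 85 had fragments and 18 passed the filter on low counts. None of those 18 passed edgeR or DESeq2, 0 had an unadjusted p under 0.05 (11.5% of all genes), and the median log2 fold change was -0.16. Without unlabelled replicate 1 the median was -0.40 over 25 tested pseudogenes, and HMGB1P5 was at 0.58. The median was -0.07 over 23 without unlabelled replicate 2, and -0.52 with library size alone. The pseudogenes of HMGB1, 48 in number, held 487 and 550 fragments in labelled and 454 and 327 in unlabelled libraries, which was 12.9% and 11.1% of the HMGB1 count in labelled and 11.6% and 12.1% in unlabelled libraries. HMGB1P6 had the highest level, at 22.1 and 23.5 CPM in labelled and 23.7 and 19.9 CPM in unlabelled libraries, followed by HMGB1P5 (18.5 and 16.0 CPM in labelled, 14.8 and 11.7 CPM in unlabelled) and HMGN2P3 (8.69 and 12.0 CPM in labelled, 12.7 and 10.8 CPM in unlabelled). The largest log2 fold changes in size were those of HMGB3P14 (-0.48 ± 0.48), HMGB3P24 (-0.41 ± 0.49) and HMGB1P10 (0.38 ± 0.44), each about the size of its SE. HMGN5 and HMGN4 had no numbered pseudogene in the table. Reads shared between a parent and its copies make all pseudogene values uncertain.

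On the X chromosome the gene nearest to HMGN5 is SH3BGRL, a small thioredoxin-like protein gene on the plus strand that starts 188 bases beyond the HMGN5 end, so that both are transcribed away from a common region. SH3BGRL had 35.1 and 31.0 CPM in labelled and 42.8 and 38.2 CPM in unlabelled libraries, and its log2 fold change was -0.30 ± 0.13 (edgeR adjusted p 0.422). The values thus lay on the other side of 0 from those of HMGN5. On the other side, 183351 bases away, the nearest tested gene was the pseudogene VDAC1P1, at 1.74 and 1.15 CPM in labelled and 1.33 and 0.900 CPM in unlabelled libraries (log2 fold change 0.32 ± 0.48, adjusted p 0.827). Of 610 genes tested on the X chromosome 1 was called higher, HMGN5 itself, and 0 lower, where 0.269% and 0.0158% of all genes tested were. As HMGN5 led to the choice of the family, nothing is read from this count. The median log2 fold change of the 610 genes was -0.02.

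The genes whose pattern over the 4 libraries was most like that of HMGN5 were found by the Euclidean distance between log2 CPM values, each centred on the gene's own mean, among 12643 genes with a mean of at least 5 CPM. The nearest was EGR1, an immediate early transcription factor (distance 0.359), with 171 and 140 CPM in labelled and 75.5 and 73.6 CPM in unlabelled libraries. Next came 3 transcripts of the mitochondrial chromosome, MT-TM (methionine tRNA, distance 0.387), MT-ND2 (a complex I subunit, 0.406) and MT-ATP6 (an ATP synthase subunit, 0.440), and the unnamed gene ENSG00000270022 on chromosome 22 (0.442). MT-TM stood at 19.9 and 24.9 CPM in labelled and 7.08 and 7.05 CPM in unlabelled libraries. Each of the 5 had both labelled libraries above both unlabelled ones, which follows from choosing them by likeness to HMGN5. The likeness rests on 4 libraries.

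Other genes with an HMG box, the DNA-binding fold of the HMGB proteins, were examined as a list of 27, of which 24 were tested. With adjustment over all genes 0 passed edgeR and 0 passed DESeq2, while 4 had an unadjusted edgeR p under 0.05, where 11.5% of all genes did. Here the median log2 fold change was 0.13, with 17 of 24 positive, where 9097 of all 18973 genes tested were. SOX12, a SOX transcription factor, had 191 and 192 CPM in labelled and 145 and 107 CPM in unlabelled libraries (log2 fold change 0.60 ± 0.16). It passed edgeR with the replicate block (adjusted p 0.0345) and without the filter on low counts (0.0098). SOX9 was at 0.56 ± 0.20, and SMARCE1, a subunit of the SWI/SNF remodelling complex, was at -0.52 ± 0.15, with 21.4 and 27.2 CPM in labelled and 32.0 and 38.1 CPM in unlabelled libraries. TFAM, the HMG-box protein that packages mitochondrial DNA and is encoded in the nucleus, was added here after its values were seen, at 152 and 159 CPM in labelled and 136 and 139 CPM in unlabelled libraries (0.18 ± 0.13). With library size alone 2 of the 24 were positive and 4 were called lower, where 13.4% of all genes tested were. The median of the 24 was 0.19 without unlabelled replicate 1 and 0.12 without unlabelled replicate 2.

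Linker histones, which HMGN proteins displace from nucleosomes, had 5 of 10 genes tested, and none passed edgeR or DESeq2, with 1 at an unadjusted p under 0.05 (11.5% of all genes). The median log2 fold change was 0.05. H1-10 had 123 and 114 CPM in labelled and 139 and 120 CPM in unlabelled libraries (-0.13 ± 0.13), and H1-3 had 47.8 and 51.8 CPM in labelled and 46.7 and 45.6 CPM in unlabelled libraries (0.11 ± 0.12). The median was -0.30 with library size alone and -0.09 without unlabelled replicate 2. Without unlabelled replicate 1 it was 0.23.

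All 16 other nucleosome-associated proteins on the list were tested, and 0 passed edgeR, 4 had an unadjusted p under 0.05 (11.5% of all genes) and 2 passed DESeq2 as higher (0.332% of all genes). The median log2 fold change was 0.18 and 14 of 16 were positive, where 9097 of all 18973 genes tested were. But with library size alone the median of the 16 was -0.18 and 4 were positive, where the median of all genes was -0.37. NCL, the nucleolar protein nucleolin, had 1192 and 1330 CPM in labelled and 869 and 779 CPM in unlabelled libraries (0.61 ± 0.19, DESeq2 adjusted p 0.00686). ANP32E, a chaperone of histone H2A.Z, had 268 and 268 CPM in labelled and 187 and 184 CPM in unlabelled libraries (0.53 ± 0.13, DESeq2 adjusted p 0.0488). ANP32A was at 0.47 ± 0.19. Without unlabelled replicate 1 the median of the 16 was 0.35, and without unlabelled replicate 2 it was 0.12.

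**Figure D5:**
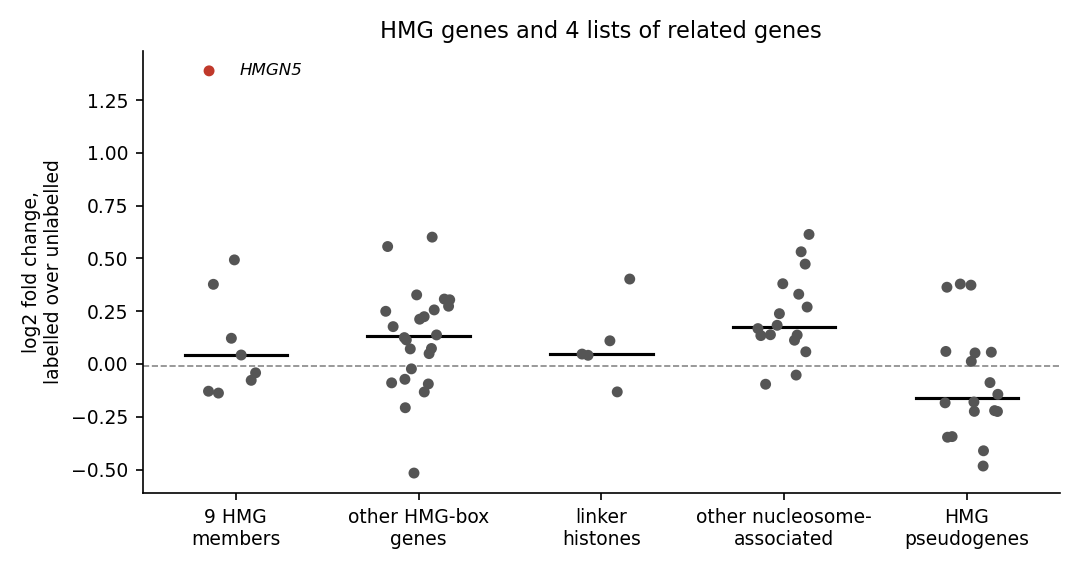
Log2 fold change, labelled over unlabelled, of the tested genes of 5 lists, with the median of each list as a black bar and that of all genes tested as a dashed line. Each point is a gene, red where edgeR called it over all genes. HMGN5, at 1.39, is the 1 red point, and the highest of the others is NCL at 0.61.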

How the data were processed

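RNA of 2 labelled and 2 unlabelled libraries was measured, with groups and replicate numbers from the sample titles. The deposited values are whole-number fragment counts per gene, made by the authors with featureCounts 1.6.4 on GENCODE 44, counting pairs with both ends mapped, without strand or multi-mapping options, per the file headers. The submitters' processing notes name STAR 2.7.9a, the build GRCh38 and DESeq2 1.42.0.

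Symbols were matched for all 62700 genes. Counts were fitted with edgeR 4.0.16 (glmQLFit, glmQLFTest) in R 4.3.3 after filterByExpr and TMM, with Benjamini-Hochberg adjustment over 18973 genes and no block. The SE was taken from the log2 fold change and its F statistic (absolute value over root F). The log2 CPM values used a prior count of 2. The fitting code was run on simulated counts with 200 genes changed and the same spread setting for every gene. No library was set apart in that simulation, so it checks the code and not the results from these libraries. Transcript features came from GENCODE 29 (GRCh38), with the APPRIS principal, then longest, coding transcript. Python 3.11.15, SciPy 1.17.1, Biopython 1.88 and matplotlib 3.10.9 were used. Alternatives were 2 filters, 4 scalings, DESeq2, a replicate block and leaving out each library.

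The members, lists and named genes were chosen with earlier results of these data known. The named genes were all members, HMGA2 and HMGB4, the called genes and the 3 largest log2 fold changes in size of each of 4 lists, the 3 most abundant pseudogenes, the neighbours of HMGN5 and its 5 most similar genes. Some genes covered by these lists are not reported here.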

Additional observations from a re-analysis of the deposited data

How the results depend on the processing

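Of the 12 alternatives, library size alone gave HMGN5 a log2 fold change of 1.04, and the other 11 gave 1.35 to 1.45. The same libraries led to the choice of HMGN5, so these values describe the effect of processing and add no support. Leaving out 1 library at a time gave 1.36 to 1.45. The difference in its log2 ratio to the 4 paralogs was 1.45 with their geometric mean, and 1.36 to 1.65 with 1 library left out. The count of members called higher was 1 to 3 with 1 library left out, and that of members called lower was 2 with library size alone. Over all genes 183 were higher and 119 lower with no filter on low counts. Without the mitochondrial genes, which removes those from the test, 28 were higher. With library size alone 2541 of all genes tested were lower (13.4%), so nothing is read from the 2 of 9 members lower there. Over all genes 5 were lower with DESeq2 size factors in edgeR, and 17 were lower with DESeq2. Leaving out 1 library gave 49 to 2440 higher and 9 to 1546 lower, where the lone library of a group is assumed to vary like the other group. Except as shown by these alternatives' construction, the cause was not tested.

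The replicate numbers were shared by the groups but the labels do not say that they mark a shared culture or day, and the deviations of same-numbered libraries correlated at -0.07 over 18973 genes. With the replicate block 140 genes were higher and 96 lower, HMGN5 stayed the 1 member called, at 1.39, and the ratio to its paralogs differed by 1.5. Every member, HMGN5 included, moved by less than the spread between libraries under 11 of 12 alternatives, and by more with library size alone. Leaving out 1 library of a group moves the difference by only part of the gap within that group. Those alternatives could therefore hardly exceed that spread.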
